A study of Mus musculus with 15 samples.

Results

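The chemokine ligand genes are the genes of the mouse CC, CXC, CX3C and XC chemokine families. They were taken as every symbol that begins with Ccl, Cxcl, Cx3cl or Xcl followed by a number and at most 1 letter, together with Ppbp and Pf4, whose products are chemokines under older names. The rule found 40 genes among the 48440 genes counted. Of these 33 had 10 or more counts in 3 or more libraries, and the same number passed the filter on low counts that left 18167 genes for testing. Of the other 7, Ccl1 and Ccl26 had 0 counts in all 15 libraries, which allows up to 0.00605 CPM (counts per 1e6 counts) over the whole series. Xcl1, Ccl22, Cxcl9, Cxcl11 and Cxcl17 had between 2 and 25 counts in all.

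RNA-seq was run on primary lung fibroblasts of C57BL/6 mice, in 5 groups of 3 libraries, all grown at 3% oxygen. The groups were Atm+/+ cells that had received 10 Gy of X-rays 10 days before harvest and are labelled passage 2, called irradiated cells here, then Atm-/- cells at passage 8, Atm+/+ cells at passage 8, Atm-/- cells at passage 2 and Atm+/+ cells at passage 2. The series design gives 3 fibroblast strains for each genotype, so the spread within a group holds differences between strains, and has them sampled at both passages. Irradiation was given to Atm+/+ cells alone. The labels state neither the part of Atm that the knockout lacks nor the sex or age of the mice, and Atm encodes a protein kinase of the DNA damage response.

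Chemokines are small secreted proteins that bind G protein-coupled receptors on leukocytes and draw these cells along a gradient. Fibroblasts make several of them without stimulation, among them Cxcl12 and Cxcl14, and make monocyte- and neutrophil-attracting members after NF-kB signalling and Cxcl10 and Ccl5 after interferon signalling. In the lung, alveolar macrophages and other macrophages are a further well-known source, in particular of Ccl3, Ccl4, Ccl6, Ccl9 and Pf4. Chemokines are also part of the secretory programme that senescent fibroblasts are known for.

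Promoter sequences are shown for 4 members on which the results turn. Cxcl10 rose in 3 comparisons, Cxcl14 had the highest TPM (transcripts per 1e6, a level per gene length) in passage 2 and irradiated cells, and Cxcl1 and Cxcl3 lie in the cluster on chromosome 5 where every member fell with passage in Atm+/+ cells. Each window holds the 250 bases before the RefSeq start site (GRCm38.p6), 5′ to 3′ on the strand of the gene, and is taken from RefSeq. Capitals mark matches, on either strand, to TTCNNTTTC (an interferon-response type motif), GGGNNNTTC (an NF-kB type motif) or TTCNNNGAA (a STAT type motif), and matches that overlap run together.
Cxcl10, chr5:92348890-92349139, minus strand: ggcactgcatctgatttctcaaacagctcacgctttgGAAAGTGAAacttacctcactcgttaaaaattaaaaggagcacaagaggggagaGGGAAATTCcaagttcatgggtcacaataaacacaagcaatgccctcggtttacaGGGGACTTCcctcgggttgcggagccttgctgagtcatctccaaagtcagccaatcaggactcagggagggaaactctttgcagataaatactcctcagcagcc
Cxcl14, chr13:56296552-56296801, minus strand: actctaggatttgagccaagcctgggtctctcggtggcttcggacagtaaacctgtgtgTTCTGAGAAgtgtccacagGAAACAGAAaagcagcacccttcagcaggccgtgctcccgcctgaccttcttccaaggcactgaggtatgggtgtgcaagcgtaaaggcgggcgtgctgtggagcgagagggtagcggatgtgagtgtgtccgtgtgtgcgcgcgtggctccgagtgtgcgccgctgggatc
Cxcl3, chr5:90785851-90786100, plus strand: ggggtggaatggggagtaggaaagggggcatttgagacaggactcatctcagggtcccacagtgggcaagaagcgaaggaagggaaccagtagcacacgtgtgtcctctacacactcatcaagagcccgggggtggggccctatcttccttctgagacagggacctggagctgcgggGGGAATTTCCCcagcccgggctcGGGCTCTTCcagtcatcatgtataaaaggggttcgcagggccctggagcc
Cxcl1, chr5:90890995-90891244, plus strand: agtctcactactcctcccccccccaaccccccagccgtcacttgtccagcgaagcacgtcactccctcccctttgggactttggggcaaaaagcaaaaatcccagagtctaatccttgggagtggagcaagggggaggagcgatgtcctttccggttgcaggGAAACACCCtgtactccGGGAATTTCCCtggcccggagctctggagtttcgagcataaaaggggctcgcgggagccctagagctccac
The Cxcl10 window held 1 match of the interferon-response type, 213 bases before the start site, and 2 of the NF-kB type, at 159 and 104 bases. The Cxcl3 and Cxcl1 windows share the stretch GGGAATTTCCC, which matches the NF-kB type motif on both strands, 73 bases before the start site in Cxcl3 and 71 bases before it in Cxcl1. Cxcl3 and Cxcl1 each held 1 further NF-kB type match. Cxcl14 had an interferon-response type match at 172 bases and a STAT type match at 191 bases. The promoter table had 35 windows for 29 members, and a member was counted if any of its windows matched. The percentages are of single windows, so members and windows are unlike units. Of the 29 members, 6 held the interferon-response type motif (Ccl1, Ccl19, Ccl3, Cxcl10, Cxcl14 and Cxcl9), against 7.13% of all 32851 windows. The NF-kB type motif was in 10 of them (Ccl1, Ccl20, Ccl27b, Ccl9, Cxcl1, Cxcl10, Cxcl2, Cxcl3, Cxcl9 and Xcl1), against 11.8% of windows, and the STAT type motif in Ccl17 and Cxcl14, against 7.02%. A match in these letters is a description of the window and not a binding site.

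Library totals ran from 13.6 to 39.2 (in units of 1e6 counts). A pair of libraries stood apart when all were thinned to the same depth. Atm-/- passage 8 replicate 3, the shallowest, had 15037 genes detected and Atm+/+ passage 2 replicate 3 had 17219, where the remaining 13 libraries had 20029 or more. A fit without this pair, added after the data were seen, is called the 13-library fit. All 9 fibroblast markers were present in every group, with summed levels of 23081 to 26700.2 CPM in irradiated cells, 9494 to 13365 CPM in Atm-/- passage 8 cells, 29778 to 36304 CPM in Atm+/+ passage 8 cells, 24685 to 31110.0 CPM in Atm-/- passage 2 cells and 22838 to 35504 CPM in Atm+/+ passage 2 cells. The cultures also held RNA of other cell types. The 15 macrophage markers summed to 1183 to 2045 CPM in irradiated cells, 39.1 to 58.5 CPM in Atm-/- passage 8 cells, 64.7 to 100.2 CPM in Atm+/+ passage 8 cells, 907 to 1397 CPM in Atm-/- passage 2 cells and 1979 to 2771 CPM in Atm+/+ passage 2 cells. Of these markers, Ptprc and Adgre1 were at 0 in all Atm-/- passage 8 libraries. The others held between 1 (Fcgr1) and 1585 (Lyz2) counts in that group, with Csf1r at 500, Cd68 at 709 and Cd14 at 844. Ptprc was also at 0 in Atm+/+ passage 2 replicate 3, the library with the highest macrophage marker sum, so a 0 for Ptprc does not show that macrophage RNA was absent. In bulk libraries, fewer cells of a type and less RNA per cell cannot be told apart. CPM values are normalised by TMM. In what follows, 3 values of a gene in a group are its replicates 1 to 3, SE is a standard error on the log2 scale, and adjusted p is that of edgeR's quasi-likelihood test over all 18167 genes, with a threshold of 0.05. Fold changes named for a comparison of A against B are positive where A is higher.

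Most members that passed in the passage comparisons were lower at passage 8 in both genotypes, and fewer members passed between genotypes. Passage 8 against passage 2 in Atm-/- cells had 18 members that fell (8.25% of all genes fell), 0 that rose (4.76% of all genes rose) and 15 that did not pass. In Atm+/+ cells 19 members fell with passage (13.5% of all genes fell), 2 rose (9.8% of all genes rose) and 12 did not pass. The median log2 fold change of the 33 members was -2.99 in Atm-/- cells, against -0.08 over all genes, and -1.24 in Atm+/+ cells, against 0.00 over all genes, and both member medians were the same with genes at 0 counts set to their bounds. These passage comparisons share no library. Where edgeR gave 0 members that rose in Atm-/- cells, DESeq2 also gave 0 and the 13-library fit gave 2 (Ccl2 and Ccl20), and 21 members had an unadjusted p under 0.05 in either direction.

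Between genotypes at passage 2, Atm-/- against Atm+/+, 1 member rose (0.628% of all genes rose), 2 fell (0.341% of all genes fell) and 30 did not pass. The median member stood at -0.49 on the log2 scale, against 0.04 over all genes, and 11 members had an unadjusted p under 0.05. At passage 8, 2 members rose (5.03% of all genes rose), 5 fell (4.29% of all genes fell) and 26 did not pass, with a member median of -0.57 against -0.08. When only the groups compared were fitted, none of these 7 calls at passage 8 held (adjusted p = 0.0725 to 0.173), nor did any of the 3 at passage 2 (adjusted p = 0.0864 to 0.111). With the strain number as a block, the count was 4 at passage 8 and 0 at passage 2. In the 13-library fit 13 members passed at passage 8, 6 higher and 7 lower in Atm-/- cells, and 5 passed at passage 2, 2 higher and 3 lower.

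Irradiated cells against Atm+/+ passage 2 cells had 1 member that rose (11% of all genes rose), 9 that fell (16.5% of all genes fell) and 23 that did not pass. Against Atm+/+ passage 8 cells, 11 members rose in irradiated cells (4.3% of all genes rose), 3 fell (2.59% of all genes fell) and 19 did not pass. The member medians were -0.91 and 0.74, against -0.01 and -0.01 over all genes. Both comparisons use the same irradiated libraries, and their controls also enter the passage comparison, so these counts are not independent of each other. TPM values moved the split of calls beyond that of the counts in 3 comparisons. On log2(TPM + 1) in limma, 2 members rose and 1 fell between genotypes at passage 2, 2 rose and 6 fell in irradiated against passage 2 cells, and 13 rose and 1 fell in irradiated against passage 8 cells. On that scale the median of all genes was itself shifted in every comparison. It stood at 0.22 between genotypes at passage 2, -0.29 at passage 8, -0.32 with passage in Atm-/- cells, 0.19 with passage in Atm+/+ cells, 0.32 and 0.14 for irradiated cells against passage 2 and passage 8, and -0.50 for the difference of the passage effects.

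The shares of all genes given above for edgeR depend on this scale. On log2(TPM + 1), 4062 genes passed as higher and 1592 as lower in irradiated against Atm+/+ passage 2 cells, where edgeR gave 2003 and 2995, and 811 and 215 against Atm+/+ passage 8 cells, where edgeR gave 781 and 471. Between genotypes the limma counts were 129 higher and 108 lower at passage 2 (114 and 62 in edgeR, 414 and 505 in DESeq2), and 367 higher and 1003 lower at passage 8 (913 and 780 in edgeR). With passage they were 324 higher and 1953 lower in Atm-/- cells (864 and 1498 in edgeR), and 1777 higher and 1580 lower in Atm+/+ cells (1780 and 2447 in edgeR). For the difference of the passage effects they were 177 higher and 656 lower (446 and 358 in edgeR). No call of a member changed direction in any of these fits.

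Some calls did not hold in every fit. Beside the calls named with the genes below, at least 1 of the limma fits on TPM ended the passage calls of Cxcl10, Cxcl15, Cxcl5, Ccl7 and Ccl21a in Atm+/+ cells, the passage call of Cx3cl1 in Atm-/- cells and the call of Pf4 in irradiated against passage 2 cells. Fitting only the groups compared ended the passage calls of Cxcl10 and Cxcl15 in Atm+/+ cells (adjusted p = 0.0619 to 0.0661), those of Ccl7, Ccl21a, Cx3cl1, Cxcl2 and Cxcl5 in Atm-/- cells (adjusted p = 0.113 to 0.208), and that of Cxcl1 in irradiated against passage 2 cells (adjusted p = 0.075).

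**Figure D1:**
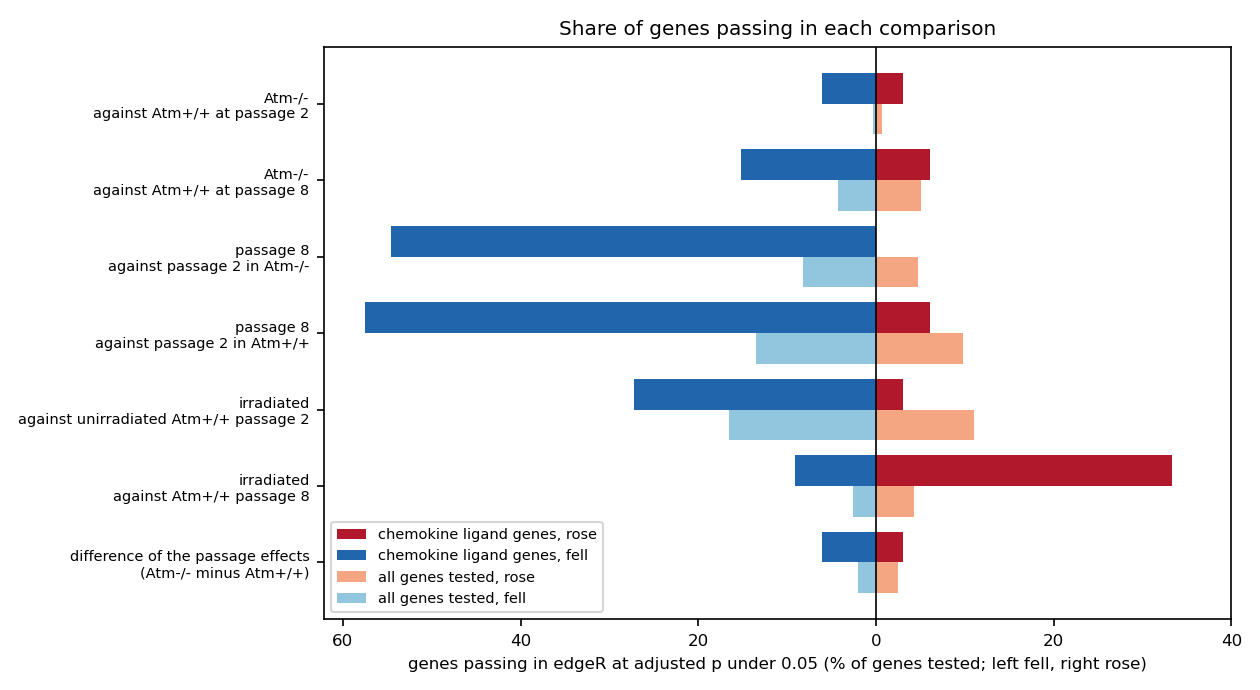
Percent of genes tested that passed in edgeR at an adjusted p under 0.05 in each of 7 comparisons, with genes that fell to the left and genes that rose to the right of 0; dark bars are the 33 chemokine ligand genes and light bars all 18167 genes. Of the members, 18 fell with passage in Atm-/- cells and 19 in Atm+/+ cells, against 8.25% and 13.5% of all genes, and 11 rose in irradiated against Atm+/+ passage 8 cells, against 4.3% of all genes.

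In TPM, the family summed to 4244 ± 85.5 TPM in irradiated cells, 634 ± 266 TPM in Atm-/- passage 8 cells, 1167 ± 96.3 TPM in Atm+/+ passage 8 cells, 2743 ± 261 TPM in Atm-/- passage 2 cells and 3365 ± 310 TPM in Atm+/+ passage 2 cells (SD, n = 3 each). The sum was lowest in Atm-/- passage 8 cells, which also had the widest spread for its level. By mean TPM the leading members differed between groups. In irradiated cells they were Cxcl14 (2766 TPM), Pf4 (299 TPM) and Ccl6 (280.0 TPM). In Atm-/- passage 8 cells they were Ccl2 (152 TPM), Cxcl12 (142 TPM) and Ccl7 (136 TPM), with Cxcl14 at 51.8 TPM. In Atm+/+ passage 8 cells they were Cxcl12 (591 TPM), Cxcl14 (259 TPM) and Ccl7 (118 TPM). Cxcl14 again led in Atm-/- passage 2 cells (1034 TPM), before Ccl6 (374 TPM), and in Atm+/+ passage 2 cells (1066 TPM), before Pf4 (859 TPM). Cxcl12 and Cxcl14 together made up 61.7% to 78.9% of the summed TPM in irradiated cells, 22.1% to 38.2% in Atm-/- passage 8 cells, 72.2% to 73.7% in Atm+/+ passage 8 cells, 39.3% to 54.9% in Atm-/- passage 2 cells and 24.2% to 46.2% in Atm+/+ passage 2 cells. The passage 8 groups of the 2 genotypes did not overlap in this share.

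**Figure D2:**
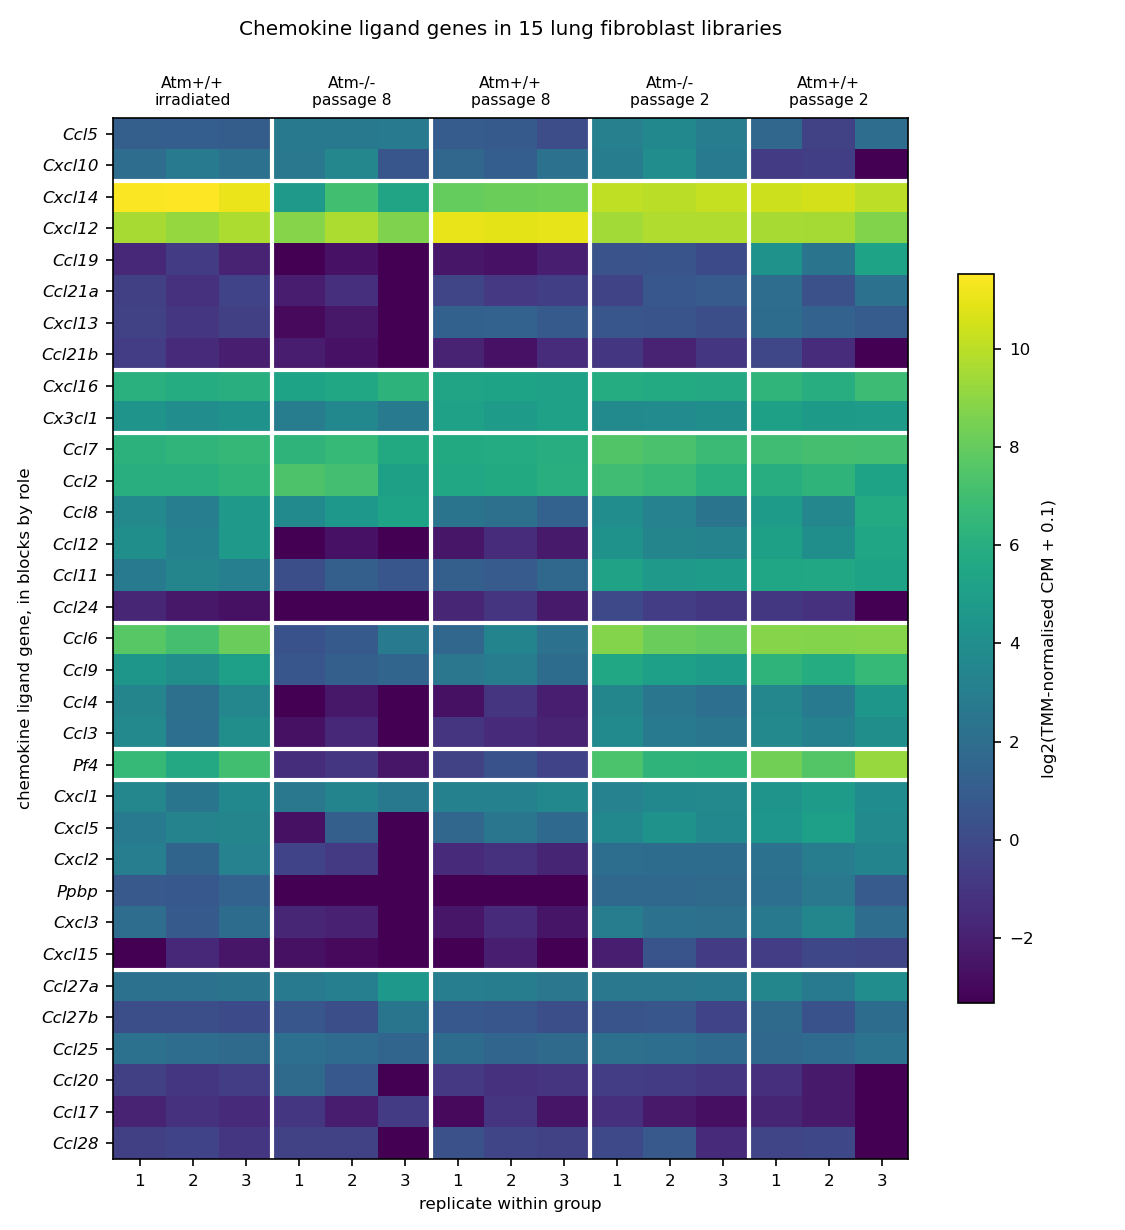
Level of the 33 tested chemokine ligand genes in each of the 15 libraries, as log2(CPM + 0.1) by colour, with rows in blocks by role and columns by group and replicate. The Pf4 row and the Ccl3, Ccl4, Ccl6 and Ccl12 rows are darker in both passage 8 groups than in the other groups. The Cxcl12 row is brightest in Atm+/+ passage 8 cells, at 1914 to 2067 CPM.

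Interferon-induced chemokines act on the receptor Cxcr3 of T and NK cells (Cxcl10) or on CC receptors of T cells and monocytes (Ccl5). Cxcl10 stood at 3.79, 6.66 and 4.78 CPM in irradiated cells and 6.14, 11.8 and 1.49 CPM in Atm-/- passage 8 cells. It was at 2.84, 2.10 and 4.61 CPM in Atm+/+ passage 8 cells, 7.73, 15.1 and 7.07 CPM in Atm-/- passage 2 cells and 0.496, 0.575 and 0 CPM in Atm+/+ passage 2 cells. The Atm+/+ passage 2 cells were lower than every library of the other 4 groups. Cxcl10 rose in Atm-/- against Atm+/+ cells at passage 2 (log2 fold change 4.70, SE 0.84, adjusted p = 0.017), in irradiated against Atm+/+ passage 2 cells (log2 fold change 3.72, SE 0.82, adjusted p = 0.00594), and with passage in Atm+/+ cells (log2 fold change 3.05, SE 0.81, adjusted p = 0.0159). These 3 comparisons share the Atm+/+ passage 2 libraries, which held 37 counts of it in all. The genotype call was lost without Atm+/+ passage 2 replicate 1 or without Atm-/- passage 2 replicate 1 or 2 (adjusted p = 0.0511 to 0.0828), and the passage call without Atm+/+ passage 8 replicate 3 (adjusted p = 0.064). With the strain number as a block the genotype call also missed the threshold (adjusted p = 0.0572). At passage 8 the genotypes overlapped, at 1.04 (adjusted p = 0.349), through Atm-/- passage 8 replicate 3, the shallowest library. The other Atm-/- passage 8 libraries were above every Atm+/+ passage 8 library, and in the 13-library fit Cxcl10 passed there as higher in Atm-/- cells. For Cxcl10 the difference of the passage effects did not pass in edgeR, and passed in DESeq2 and in the 13-library fit. An exon of Art3 on the other strand overlaps Cxcl10, and since the strand setting of the counting is not given in the sources used here, reads of the pair cannot be told apart.

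Ccl5 stood at 2.12, 2.10 and 2.01 CPM in irradiated cells, 6.34, 6.39 and 7.10 CPM in Atm-/- passage 8 cells and 1.92, 1.73 and 1.02 CPM in Atm+/+ passage 8 cells. It was at 8.70, 12.0 and 7.75 CPM in Atm-/- passage 2 cells and 2.85, 0.630 and 3.82 CPM in Atm+/+ passage 2 cells. At either passage every Atm-/- library was above every Atm+/+ library. The difference passed at passage 8, at 2.08 (SE 0.49, adjusted p = 0.0194), and missed the threshold at passage 2, at 1.97 (SE 0.48, adjusted p = 0.0811). The passage 8 call was lost without any one of the 3 Atm+/+ passage 8 libraries (adjusted p = 0.0564 to 0.103), and with the strain number as a block (adjusted p = 0.066), while Ccl5 passed at passage 2 in DESeq2 and in the 13-library fit. Ccl5 did not pass with passage or irradiation, at log2 fold changes of -0.52 in Atm-/- cells, -0.63 in Atm+/+ cells and -0.22 in irradiated against passage 2 cells.

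Other genes of the pathway were read against the share of all genes that passed in either direction in edgeR. That share was 0.969% between genotypes at passage 2, 9.32% between genotypes at passage 8, 13% with passage in Atm-/- cells, 23.3% with passage in Atm+/+ cells, and 27.5% and 6.89% in irradiated cells against passage 2 and passage 8. Of 25 upstream regulators (interferon, NF-kB and cytokine signalling genes), 24 were tested. Between genotypes at passage 2, 4 rose and 0 fell, with a list median of -0.06. At passage 8, 4 rose and 5 fell, also at -0.06. Stat2, Irf7 and Irf9, which carry the interferon signal to the nucleus, rose in Atm-/- cells at both passages. Irf7 stood at 63.5, 64.6 and 82.2 CPM in irradiated cells, 115, 204 and 157 CPM in Atm-/- passage 8 cells, 41.6, 27.7 and 43.1 CPM in Atm+/+ passage 8 cells, 131, 205 and 116 CPM in Atm-/- passage 2 cells and 27.2, 22.6 and 26.8 CPM in Atm+/+ passage 2 cells. No Atm-/- library overlapped an Atm+/+ library of the same passage, and the log2 fold changes were 2.08 (SE 0.26, adjusted p = 0.000632) at passage 8 and 2.56 (SE 0.26, adjusted p = 0.000331) at passage 2. Those that fell at passage 8 were Il1r1, Il6, Nfkbiz, Ifnar1 and Ifnar2, with log2 fold changes of -2.45 for the interleukin-1 receptor Il1r1 and -1.92 for the cytokine Il6. In irradiated against passage 2 cells, 5 of the 24 rose, with Irf7 at 1.46, and 3 fell, a share near the 27.5% of all genes, with a median of -0.22. Against Atm+/+ passage 8 cells, 6 rose (among them Stat2, Irf7, Il1a, Il1b and Tnf) and Tlr4 fell, with a median of 0.01. With passage, 7 fell and 1 rose in Atm-/- cells (median -0.37), and 6 fell and 2 rose in Atm+/+ cells (median -0.16), where 23.3% of all genes passed. Il1a, Il1b and Tnf, cytokines that induce chemokines, fell in both genotypes, and all 3 were at 0 in the Atm-/- passage 8 libraries. Macrophages also make them, and all 15 macrophage markers fell in the same comparisons, with Ptprc and Adgre1 likewise at 0 in Atm-/- passage 8 libraries. The part of macrophage RNA in these cytokine results was not tested.

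**Figure D3:**
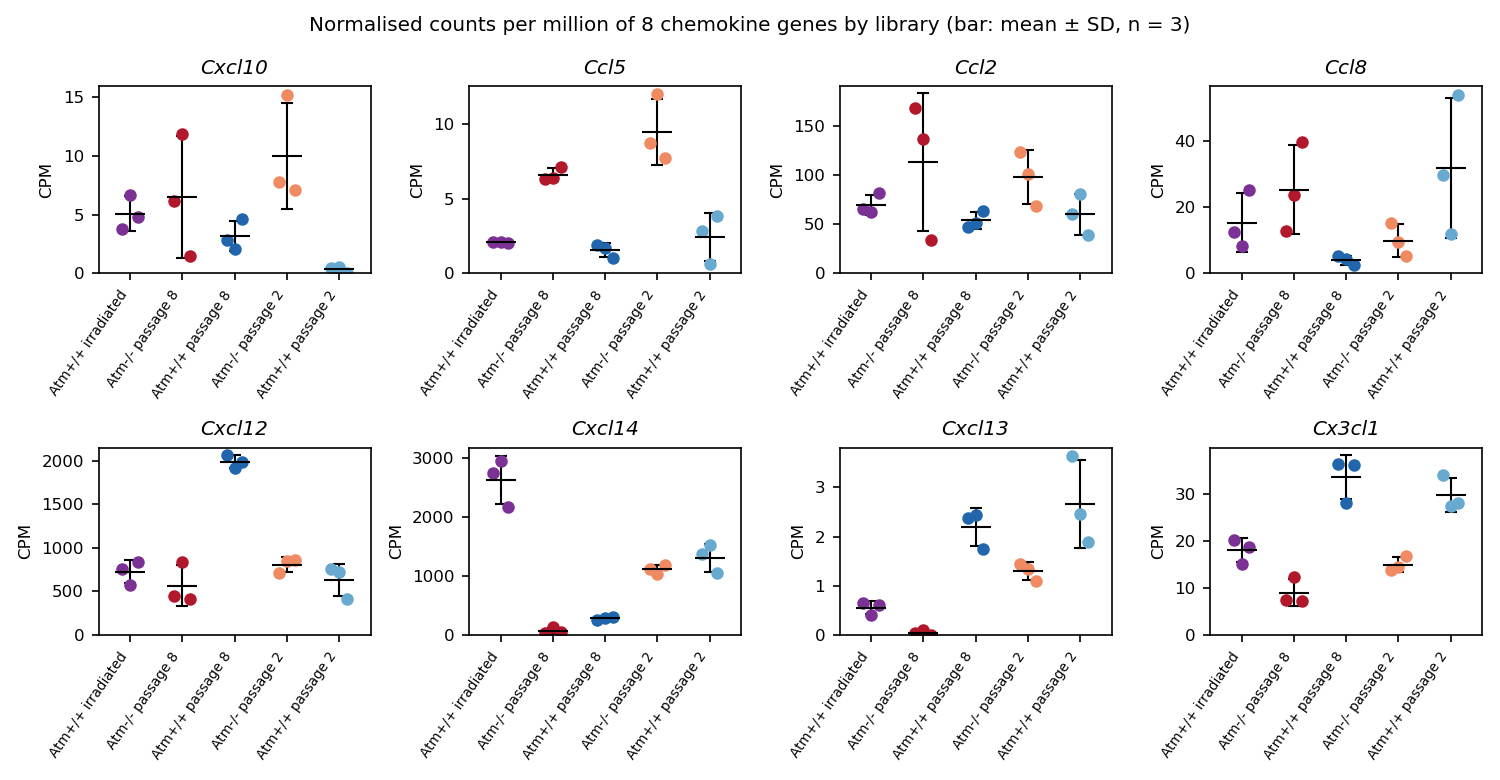
Normalised CPM of 8 chemokine genes in each library (points), with the group mean and SD over 3 replicates (bars); the 5 groups run along each horizontal axis. Cxcl10 is at or under 0.575 CPM in Atm+/+ passage 2 cells, and Cxcl12 stands at 1914 to 2067 CPM in Atm+/+ passage 8 cells, above every other library.

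The homeostatic chemokines position leukocytes in tissue without inflammation. Cxcl12, the ligand of Cxcr4 and a retention signal for stem cells and lymphocytes, was at 761, 577 and 839 CPM in irradiated cells, 452, 837 and 411 CPM in Atm-/- passage 8 cells and 2067, 1914 and 1993 CPM in Atm+/+ passage 8 cells. It was at 711, 855 and 857 CPM in Atm-/- passage 2 cells and 753, 725 and 413 CPM in Atm+/+ passage 2 cells. Every Atm+/+ passage 8 library lay above all others. With passage Cxcl12 stood at -0.51 (SE 0.27, adjusted p = 0.244) in Atm-/- cells, where the groups overlapped, and it rose in Atm+/+ cells (log2 fold change 1.66, SE 0.28, adjusted p = 0.000856). The difference between these effects passed, at -2.17 (SE 0.39, adjusted p = 0.0144), and missed the threshold without Atm+/+ passage 8 replicate 3 (adjusted p = 0.051). At passage 8 Cxcl12 fell in Atm-/- against Atm+/+ cells (log2 fold change -1.81, SE 0.28, adjusted p = 0.00255), and in irradiated against Atm+/+ passage 8 cells (log2 fold change -1.46, SE 0.28, adjusted p = 0.00489). The last call was lost in limma on TPM, with or without the filter and with either pseudocount (adjusted p = 0.0848 to 0.132). Of the 9 fibroblast markers, 7 fell and 1 rose in the same Atm-/- against Atm+/+ comparison at passage 8, with a list median of -1.67. Of all genes 4.29% fell and 5.03% rose there. In the difference of the passage effects 5 of the 9 fell (1.97% of all genes fell). Between genotypes at passage 8, 4 of 5 tested mesothelial markers rose, with summed levels of 28.2 to 105 CPM in Atm-/- passage 8 cells and 11.2 to 12.3 CPM in Atm+/+ passage 8 cells. The part of these shifts in the Cxcl12 difference was not tested.

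Cxcl14, which is made by fibroblasts and epithelia and attracts monocytes and dendritic cell precursors, had the highest mean TPM in irradiated and both passage 2 groups. In CPM it stood at 2745, 2944 and 2171 CPM in irradiated cells, 24.7, 132 and 41.3 CPM in Atm-/- passage 8 cells and 254, 289.7 and 303 CPM in Atm+/+ passage 8 cells. It was at 1117, 1029 and 1183 CPM in Atm-/- passage 2 cells and 1361, 1514 and 1049 CPM in Atm+/+ passage 2 cells. Irradiated cells were above all other libraries, and the Atm-/- passage 8 libraries below all others. Cxcl14 fell with passage in Atm-/- cells (log2 fold change -4.07, SE 0.48, adjusted p = 8.88e-05), and in Atm+/+ cells (log2 fold change -2.21, SE 0.44, adjusted p = 0.00303). The difference of these effects did not pass, at -1.86 (SE 0.61, adjusted p = 0.071), and passed in DESeq2. At passage 8 it fell in Atm-/- against Atm+/+ cells (log2 fold change -2.09, SE 0.44, adjusted p = 0.0114). Without Atm-/- passage 8 replicate 2, the highest of its group, the passage change in Atm-/- cells was -5.06 and the genotype difference at passage 8 was -3.11. Cxcl14 rose in irradiated against Atm+/+ passage 8 cells (log2 fold change 3.21, SE 0.46, adjusted p = 0.000632). Against Atm+/+ passage 2 cells the irradiated libraries did not overlap the controls either, but the test gave 1.00 (SE 0.43, adjusted p = 0.0951).

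Cxcl13, the B cell attractant that acts on Cxcr5, was low in all groups. It stood at 0.645, 0.401 and 0.615 CPM in irradiated cells, 0.0291, 0.0963 and 0 CPM in Atm-/- passage 8 cells and 2.38, 2.44 and 1.76 CPM in Atm+/+ passage 8 cells. It was at 1.44, 1.35 and 1.09 CPM in Atm-/- passage 2 cells and 3.63, 2.47 and 1.89 CPM in Atm+/+ passage 2 cells. The Atm-/- passage 8 libraries, with 4 counts in all, did not overlap any other group. Cxcl13 fell with passage in Atm-/- cells (log2 fold change -4.58, SE 0.60, adjusted p = 0.000191), and was at -0.28 (SE 0.43, adjusted p = 0.653) with passage in Atm+/+ cells, where groups overlapped. The difference of these effects passed, at -4.29 (SE 0.74, adjusted p = 0.0131). At passage 8 Cxcl13 fell in Atm-/- against Atm+/+ cells (log2 fold change -5.34, SE 0.60, adjusted p = 0.000306). With the strain number as a block the difference missed the threshold (adjusted p = 0.0523), as it did in limma on TPM without a filter. Without Atm-/- passage 8 replicate 2, when 1 count is left in that group, the fitted values were -5.68, -5.43 and -6.46. Between genotypes at passage 2 Cxcl13 did not pass in edgeR, though the groups did not overlap. There Cxcl13 passed as lower in Atm-/- cells in DESeq2 and in the 13-library fit. It fell in irradiated cells against Atm+/+ passage 2 cells (log2 fold change -2.26, SE 0.45, adjusted p = 0.00356), and against Atm+/+ passage 8 cells (log2 fold change -1.98, SE 0.45, adjusted p = 0.015). The last call was lost without any one of the 3 irradiated libraries, or without Atm+/+ passage 8 replicate 1 or 2 (adjusted p = 0.0652 to 0.11), and with the block (adjusted p = 0.0625).

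Ccl19 and Ccl21a are ligands of Ccr7, which guides dendritic cells and naive T cells to lymph nodes. Ccl19 stood at 0.232, 0.496 and 0.168 CPM in irradiated cells, 0, 0.0642 and 0 CPM in Atm-/- passage 8 cells and 0.0861, 0.0678 and 0.137 CPM in Atm+/+ passage 8 cells. It was at 1.27, 1.32 and 0.900 CPM in Atm-/- passage 2 cells and 18.8, 5.23 and 38.4 CPM in Atm+/+ passage 2 cells. The Atm+/+ passage 2 libraries were above all others and differed most among themselves. Ccl19 fell in Atm-/- against Atm+/+ cells at passage 2 (log2 fold change -4.15, SE 0.67, adjusted p = 0.00861), a call that was lost without any one of the 3 Atm-/- passage 2 libraries (adjusted p = 0.0622 to 0.0645) and with the strain number as a block (adjusted p = 0.0689), and that stood at -3.34 without Atm+/+ passage 2 replicate 3. It fell in irradiated against Atm+/+ passage 2 cells (log2 fold change -6.09, SE 0.74, adjusted p = 0.000161), and with passage in Atm+/+ cells (log2 fold change -7.67, SE 0.83, adjusted p = 2.61e-05), and without Atm+/+ passage 2 replicate 3 these were -5.24 and -6.85. In Atm-/- cells it passed as lower at passage 8 (adjusted p = 0.00276), where it had 2 counts in all, against 131 at passage 2, an Atm-/- passage 2 over passage 8 ratio of 44.9 (95% counting interval 12.2 to 375). Pseudogene copies of Ccl19 can share its reads, so the split between copies is uncertain. Ccl19-ps1 and Ccl19-ps3 also fell in Atm-/- against Atm+/+ cells at passage 2, with log2 fold changes of -3.37 (SE 0.64, adjusted p = 0.0233) and -3.42 (SE 0.50, adjusted p = 0.00801).

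Ccl21a stood at 0.594, 0.330 and 0.699 CPM in irradiated cells, 0.116, 0.321 and 0 CPM in Atm-/- passage 8 cells and 0.746, 0.441 and 0.576 CPM in Atm+/+ passage 8 cells. It was at 0.720, 1.55 and 1.83 CPM in Atm-/- passage 2 cells and 3.91, 1.18 and 4.79 CPM in Atm+/+ passage 2 cells. It fell with passage in Atm-/- cells (log2 fold change -2.99, SE 0.75, adjusted p = 0.0174), and in Atm+/+ cells (log2 fold change -2.47, SE 0.68, adjusted p = 0.0191), and in irradiated against Atm+/+ passage 2 cells (log2 fold change -2.60, SE 0.68, adjusted p = 0.0138). The groups did not overlap in these 3 comparisons, but all rested on few counts. The Atm-/- passage call was lost without Atm-/- passage 2 replicate 2 or 3 or Atm-/- passage 8 replicate 1 (adjusted p = 0.0554 to 0.0672) and was -4.02 without Atm-/- passage 8 replicate 2. The Atm+/+ passage call was lost without Atm+/+ passage 2 replicate 1 or 3 or any one of the Atm+/+ passage 8 libraries (adjusted p = 0.0501 to 0.0781). The irradiation call was lost without irradiated replicate 1 or 2 (adjusted p = 0.0582 to 0.0738). Ccl21b is a near-identical copy whose reads cannot be cleanly separated from those of Ccl21a, and it did not pass in any comparison.

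Cx3cl1 and Cxcl16 are the pair of chemokines made as membrane proteins with a mucin stalk, which Adam10 and Adam17 can shed. Cx3cl1, the ligand of Cx3cr1 on monocytes and microglia, stood at 20.2, 15.1 and 18.7 CPM in irradiated cells, 7.48, 12.2 and 7.19 CPM in Atm-/- passage 8 cells and 36.4, 28.1 and 36.1 CPM in Atm+/+ passage 8 cells. It was at 13.7, 14.3 and 16.8 CPM in Atm-/- passage 2 cells and 33.9, 27.3 and 28.1 CPM in Atm+/+ passage 2 cells. The Atm-/- libraries were below the Atm+/+ libraries at either passage, and the irradiated libraries were below both unirradiated Atm+/+ groups. Cx3cl1 fell in Atm-/- against Atm+/+ cells at passage 8 (log2 fold change -1.89, SE 0.22, adjusted p = 0.00038), and at passage 2 (log2 fold change -0.99, SE 0.21, adjusted p = 0.0427). The passage 8 call held when any one library was left out. The passage 2 call was lost without any one of 11 libraries (adjusted p = 0.0642 to 0.22), all but Atm+/+ passage 2 replicate 2 and the 3 Atm-/- passage 8 libraries, and also in limma on TPM, without the filter on counts and with the strain number as a block (adjusted p = 0.0767). Cx3cl1 fell with passage in Atm-/- cells (log2 fold change -0.73, SE 0.21, adjusted p = 0.0372), and in irradiated cells against Atm+/+ passage 2 cells (log2 fold change -0.73, SE 0.21, adjusted p = 0.0219), and against Atm+/+ passage 8 cells (log2 fold change -0.90, SE 0.21, adjusted p = 0.0182). The Atm-/- passage call was lost without any one of 10 libraries (adjusted p = 0.0516 to 0.163), which were all irradiated, all Atm-/- passage 2, Atm+/+ passage 8 replicates 1 and 3 and Atm-/- passage 8 replicates 1 and 3. The irradiation calls were lost without any one irradiated library, without Atm+/+ passage 2 replicate 1 (adjusted p = 0.0591 to 0.129) and without Atm+/+ passage 8 replicate 1 or 3 (adjusted p = 0.0504 to 0.122), and in limma on TPM.

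Cxcl16, the ligand of Cxcr6 and a scavenger receptor for oxidised lipoprotein, stood at 67.4, 58.6 and 66.5 CPM in irradiated cells, 38.8, 47.8 and 75.9 CPM in Atm-/- passage 8 cells and 40.3, 38.6 and 36.0 CPM in Atm+/+ passage 8 cells. It was at 57.4, 53.3 and 49.9 CPM in Atm-/- passage 2 cells and 83.9, 61.9 and 117 CPM in Atm+/+ passage 2 cells. With passage it was at 0.01 (SE 0.24, adjusted p = 0.977) in Atm-/- cells, and it fell in Atm+/+ cells (log2 fold change -1.19, SE 0.24, adjusted p = 0.00321), where groups did not overlap. The difference of the effects did not pass, at 1.20 (SE 0.34, adjusted p = 0.0541), and passed in DESeq2 and in the 13-library fit. Zmynd15 overlaps Cxcl16 on the other strand, so its counts are uncertain in the same way as those of Cxcl10.

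Among monocyte and eosinophil attractants, Ccl2, Ccl7 and Ccl12 act mainly on Ccr2 and related receptors of monocytes, and Ccl11 and Ccl24 act on Ccr3 of eosinophils. Ccl8 is listed with them, and no receptor is assigned to it here. Ccl2 did not pass in any comparison. It stood at 65.3, 62.6 and 81.8 CPM in irradiated cells, 169, 137 and 34.5 CPM in Atm-/- passage 8 cells and 47.4, 51.5 and 63.8 CPM in Atm+/+ passage 8 cells. It was at 124, 102 and 68.8 CPM in Atm-/- passage 2 cells and 60.9, 81.0 and 38.9 CPM in Atm+/+ passage 2 cells. Its groups overlapped between genotypes at either passage, with log2 fold changes of 1.07 at passage 8 and 0.70 at passage 2. In the 13-library fit Ccl2 passed as higher in Atm-/- against Atm+/+ cells at passage 8.

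Ccl7 stood at 74.8, 85.3 and 95.5 CPM in irradiated cells, 81.0, 98.2 and 52.7 CPM in Atm-/- passage 8 cells and 52.3, 56.9 and 59.7 CPM in Atm+/+ passage 8 cells. It was at 179, 154 and 112 CPM in Atm-/- passage 2 cells and 123, 142 and 134 CPM in Atm+/+ passage 2 cells. No passage 8 or irradiated library reached a passage 2 library. Ccl7 fell with passage, with log2 fold changes of -0.94 (SE 0.21, adjusted p = 0.00918) in Atm-/- cells and -1.24 (SE 0.21, adjusted p = 0.00102) in Atm+/+ cells. Ccl7 also fell in irradiated against Atm+/+ passage 2 cells (log2 fold change -0.64, SE 0.21, adjusted p = 0.0373). The Atm-/- passage call was lost without Atm-/- passage 2 replicate 1 (adjusted p = 0.0556). The irradiation call was lost without any one of 12 libraries (adjusted p = 0.0535 to 0.177), all except Atm-/- passage 2 replicate 3 and Atm-/- passage 8 replicates 2 and 3, and in limma on TPM and without the filter on counts.

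Ccl8 stood at 12.7, 8.19 and 25.4 CPM in irradiated cells, 12.9, 23.7 and 39.7 CPM in Atm-/- passage 8 cells and 5.17, 4.31 and 2.44 CPM in Atm+/+ passage 8 cells. It was at 15.2, 9.38 and 5.24 CPM in Atm-/- passage 2 cells and 29.7, 11.8 and 54.2 CPM in Atm+/+ passage 2 cells. By their means the genotypes were in opposite order at the 2 passages, with no overlap at passage 8 and overlap at passage 2. Ccl8 rose in Atm-/- against Atm+/+ cells at passage 8 (log2 fold change 2.67, SE 0.63, adjusted p = 0.0192), and was at -1.68 (SE 0.60, adjusted p = 0.227) at passage 2. With passage it stood at 1.35 (SE 0.59, adjusted p = 0.158) in Atm-/- cells, and it fell in Atm+/+ cells (log2 fold change -3.00, SE 0.63, adjusted p = 0.0042). The difference of the passage effects passed, at 4.35 (SE 0.86, adjusted p = 0.0213). The genotype call at passage 8 was lost without any one of the Atm+/+ passage 8 libraries (adjusted p = 0.0567 to 0.1) and with the strain number as a block (adjusted p = 0.059). The difference was lost without any one of them, without Atm+/+ passage 2 replicate 1 or without Atm-/- passage 2 replicate 2 or 3 (adjusted p = 0.0538 to 0.0779), in limma on TPM without a filter, and with the block (adjusted p = 0.0826). Without Atm+/+ passage 2 replicate 3, the highest library, the Atm+/+ passage change was -2.35 and the difference 3.70.

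Ccl12, a mouse ligand of Ccr2, stood at 16.9, 9.02 and 24.8 CPM in irradiated cells, 0, 0.0642 and 0 CPM in Atm-/- passage 8 cells and 0.0861, 0.271 and 0.110 CPM in Atm+/+ passage 8 cells. It was at 19.3, 10.5 and 9.71 CPM in Atm-/- passage 2 cells and 34.2, 16.7 and 44.2 CPM in Atm+/+ passage 2 cells. No passage 8 library reached 1 CPM and no other library was below 9 CPM. In Atm-/- cells it had 2 counts at passage 8 against 1467 at passage 2, a passage 2 over passage 8 ratio of 503 (95% counting interval 139 to 4159), and it passed as lower (adjusted p = 1.49e-05). It fell with passage in Atm+/+ cells (log2 fold change -7.68, SE 0.66, adjusted p = 4.08e-06), and rose in irradiated against Atm+/+ passage 8 cells (log2 fold change 6.77, SE 0.64, adjusted p = 2.96e-05). Without Atm+/+ passage 8 replicate 2 these were -8.27 and 7.37.

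Ccl11, the eosinophil attractant eotaxin, stood at 7.05, 10.5 and 8.55 CPM in irradiated cells, 1.11, 2.18 and 1.49 CPM in Atm-/- passage 8 cells and 2.18, 1.80 and 3.13 CPM in Atm+/+ passage 8 cells. It was at 38.0, 25.9 and 28.7 CPM in Atm-/- passage 2 cells and 44.2, 46.1 and 39.4 CPM in Atm+/+ passage 2 cells. Passage 8 libraries were below irradiated libraries, and these below passage 2 libraries. Ccl11 fell with passage, with log2 fold changes of -4.27 (SE 0.30, adjusted p = 2.58e-06) in Atm-/- cells and -4.18 (SE 0.29, adjusted p = 1.16e-06) in Atm+/+ cells. It fell in irradiated against Atm+/+ passage 2 cells (log2 fold change -2.31, SE 0.27, adjusted p = 0.000101), and rose against Atm+/+ passage 8 cells (log2 fold change 1.87, SE 0.27, adjusted p = 0.000665). All 4 calls of Ccl11 held under each of the 25 alternatives run. Ccl24 was listed at 0.207, 0.0944 and 0.0559 CPM in irradiated cells, 0, 0 and 0 CPM in Atm-/- passage 8 cells and 0.201, 0.373 and 0.110 CPM in Atm+/+ passage 8 cells. It was at 0.858, 0.559 and 0.436 CPM in Atm-/- passage 2 cells and 0.434, 0.329 and 0 CPM in Atm+/+ passage 2 cells. In Atm-/- cells it passed as lower at passage 8 (adjusted p = 0.00918), where 0 counts against 69 at passage 2 make it at least 15.8-fold lower, with a floor of 3 counts over the group. Between genotypes at passage 8 Ccl24 did not pass in edgeR, at 0 counts against 22 in Atm+/+ cells. It passed as lower in Atm-/- cells there, and in the difference of the passage effects, in DESeq2 and in the 13-library fit.

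Ccl3, Ccl4, Ccl6 and Ccl9 are the macrophage inflammatory proteins and their relatives, and Pf4 (platelet factor 4, Cxcl4) is stored in platelets and also made by macrophages. All 5 genes fell with passage in both genotypes and rose in irradiated against Atm+/+ passage 8 cells. By mean TPM over all libraries Pf4 was the highest of them, at 294 TPM against 223 TPM for Ccl6. Ccl6 was above Pf4 in Atm-/- passage 2 cells (374 against 306 TPM) and in both passage 8 groups. Pf4 stood at 98.3, 48.9 and 129 CPM in irradiated cells, 0.291, 0.417 and 0.0877 CPM in Atm-/- passage 8 cells and 0.631, 1.26 and 0.686 CPM in Atm+/+ passage 8 cells. It was at 163, 81.6 and 77.7 CPM in Atm-/- passage 2 cells and 336, 191 and 606 CPM in Atm+/+ passage 2 cells. No passage 8 library overlapped the other groups, and at passage 2 the Atm-/- libraries were below the Atm+/+ libraries. Pf4 fell with passage, with log2 fold changes of -8.44 (SE 0.67, adjusted p = 4.87e-06) in Atm-/- cells and -8.79 (SE 0.63, adjusted p = 1.47e-06) in Atm+/+ cells. It fell in irradiated against Atm+/+ passage 2 cells (log2 fold change -2.04, SE 0.46, adjusted p = 0.00648), and rose against Atm+/+ passage 8 cells (log2 fold change 6.75, SE 0.59, adjusted p = 1.8e-05). Between genotypes at passage 2 it missed the threshold, at -1.81 (SE 0.45, adjusted p = 0.0859), and it passed there in DESeq2.

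Ccl6, known in mice and rats and abundant in macrophages, stood at 207, 139 and 285 CPM in irradiated cells, 1.25, 1.77 and 6.66 CPM in Atm-/- passage 8 cells and 2.93, 10.1 and 4.47 CPM in Atm+/+ passage 8 cells. It was at 428, 284 and 246 CPM in Atm-/- passage 2 cells and 459, 434 and 453 CPM in Atm+/+ passage 2 cells. No passage 8 library reached 11 CPM and no other was under 100 CPM. It fell with passage, with log2 fold changes of -6.77 (SE 0.67, adjusted p = 2.18e-05) in Atm-/- cells and -6.27 (SE 0.64, adjusted p = 1.51e-05) in Atm+/+ cells, and rose in irradiated against Atm+/+ passage 8 cells (log2 fold change 5.18, SE 0.61, adjusted p = 0.000142). Without Atm-/- passage 8 replicate 3, the Atm-/- change was -7.71, and without Atm+/+ passage 8 replicate 2 the other 2 values were -6.91 and 5.82. Ccl9 stood at 23.0, 16.2 and 33.0 CPM in irradiated cells, 1.45, 2.18 and 2.72 CPM in Atm-/- passage 8 cells and 5.83, 7.33 and 3.65 CPM in Atm+/+ passage 8 cells. It was at 48.4, 32.7 and 27.7 CPM in Atm-/- passage 2 cells and 79.2, 57.9 and 99.6 CPM in Atm+/+ passage 2 cells. Passage 8 libraries lay below all others, and the irradiated libraries below the Atm+/+ passage 2 libraries. Ccl9 fell with passage, with log2 fold changes of -4.14 (SE 0.38, adjusted p = 1.48e-05) in Atm-/- cells and -3.82 (SE 0.37, adjusted p = 9.32e-06) in Atm+/+ cells. It fell in irradiated against Atm+/+ passage 2 cells (log2 fold change -1.71, SE 0.33, adjusted p = 0.00302), and rose against Atm+/+ passage 8 cells (log2 fold change 2.11, SE 0.34, adjusted p = 0.00158). In edgeR over all libraries Ccl9 was the single member of the 5 to fall in Atm-/- against Atm+/+ cells at passage 8 (log2 fold change -1.44, SE 0.36, adjusted p = 0.0267), a call lost without Atm+/+ passage 8 replicate 1 or 2 or Atm-/- passage 8 replicate 1 (adjusted p = 0.0795 to 0.0985) and with the strain number as a block (adjusted p = 0.079). Ccl6 also passed there in the 13-library fit.

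Ccl3 stood at 12.3, 4.13 and 16.2 CPM in irradiated cells, 0.0582, 0.225 and 0 CPM in Atm-/- passage 8 cells and 0.373, 0.237 and 0.165 CPM in Atm+/+ passage 8 cells. It was at 13.8, 6.89 and 5.62 CPM in Atm-/- passage 2 cells and 12.7, 9.20 and 16.8 CPM in Atm+/+ passage 2 cells. All passage 8 libraries lay under 0.4 CPM and all others above 4 CPM. Ccl3 fell with passage, with log2 fold changes of -6.22 (SE 0.75, adjusted p = 9.97e-05) in Atm-/- cells, -7.54 without Atm-/- passage 8 replicate 2 with 2 counts left, and -5.62 (SE 0.67, adjusted p = 5.66e-05) in Atm+/+ cells. It rose in irradiated against Atm+/+ passage 8 cells (log2 fold change 5.38, SE 0.67, adjusted p = 0.000204). Ccl4 stood at 10.8, 4.44 and 11.7 CPM in irradiated cells, 0, 0.0963 and 0 CPM in Atm-/- passage 8 cells and 0.0574, 0.373 and 0.137 CPM in Atm+/+ passage 8 cells. It was at 11.0, 5.49 and 4.20 CPM in Atm-/- passage 2 cells and 11.4, 6.71 and 22.7 CPM in Atm+/+ passage 2 cells. Passage 8 libraries were again under 0.4 CPM and all others above 4 CPM. In Atm-/- cells Ccl4 had 3 counts at passage 8 against 767 at passage 2, a passage 2 over passage 8 ratio of 175 (95% counting interval 59.8 to 852), and it passed as lower (adjusted p = 0.00021). It fell with passage in Atm+/+ cells (log2 fold change -6.18, SE 0.80, adjusted p = 0.000105), and rose in irradiated against Atm+/+ passage 8 cells (log2 fold change 5.58, SE 0.78, adjusted p = 0.000525). Without Atm+/+ passage 8 replicate 2 these were -7.05 and 6.46, and without Atm+/+ passage 2 replicate 3 the first was -5.57.

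The macrophage markers moved with these genes in the passage comparisons and in irradiated against Atm+/+ passage 8 cells. All 15 fell with passage in both genotypes (list medians of -6.49 in Atm-/- cells, or -5.52 with genes at 0 at their bounds, and -5.84 in Atm+/+ cells), 13 rose in irradiated against Atm+/+ passage 8 cells (median 5.42), 4 fell in irradiated against Atm+/+ passage 2 cells (median -0.62), 5 fell in Atm-/- against Atm+/+ cells at passage 8 (median -1.16, or -0.96 with bounds). Between genotypes at passage 2 edgeR called 0 (median -1.11), with 11 of 15 at an unadjusted p under 0.05 and 6 that fell in DESeq2. In irradiated against Atm+/+ passage 2 cells the markers were mixed. There 11 did not pass in edgeR, and DESeq2 called 1 as higher and 5 as lower. Every irradiated library was above every Atm+/+ passage 2 library in Ptprc and in Adgre1, the latter at 15.0, 8.78 and 18.5 CPM against 6.76, 8.77 and 7.16 CPM. All 8 endothelial markers fell with passage in both genotypes and rose in irradiated against Atm+/+ passage 8 cells, at sums of 90.3 to 262 CPM in irradiated cells, 15.0 to 54.4 CPM in Atm-/- passage 8 cells, 8.04 to 10.8 CPM in Atm+/+ passage 8 cells, 363 to 555 CPM in Atm-/- passage 2 cells and 516 to 919 CPM in Atm+/+ passage 2 cells. Of these 8, 5 fell in irradiated against Atm+/+ passage 2 cells (median -1.81), where Ccl19, Ccl21a and Cx3cl1 fell, and 3 rose in Atm-/- against Atm+/+ cells at passage 8 (median 1.93). The summed CPM of Ccl3, Ccl4, Ccl6, Ccl9, Ccl12 and Pf4 ran from 221.6 to 499 in irradiated cells, 3.06 to 9.47 in Atm-/- passage 8 cells, 9.22 to 19.5 in Atm+/+ passage 8 cells, 370.5 to 683 in Atm-/- passage 2 cells and 715 to 1242 in Atm+/+ passage 2 cells. Both passage 8 groups lay below every other library in the macrophage, endothelial and chemokine sums. Irradiated and Atm-/- passage 2 cells overlapped in the macrophage and chemokine sums, and in the endothelial sum irradiated cells were lower. Pf4 and Ppbp are platelet genes as well. The 3 platelet markers other than members summed to between 5.30 and 15.1 CPM over all libraries. Itga2b (443 to 866 counts per group) and Gp1ba (59 to 96 counts) were present in every group, and neither passed with passage in either genotype. Gp9 was at 0 in all groups except Atm-/- passage 8 cells, where it had 1 count. The part of macrophage and endothelial RNA in the chemokine results was not tested.

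**Figure D4:**
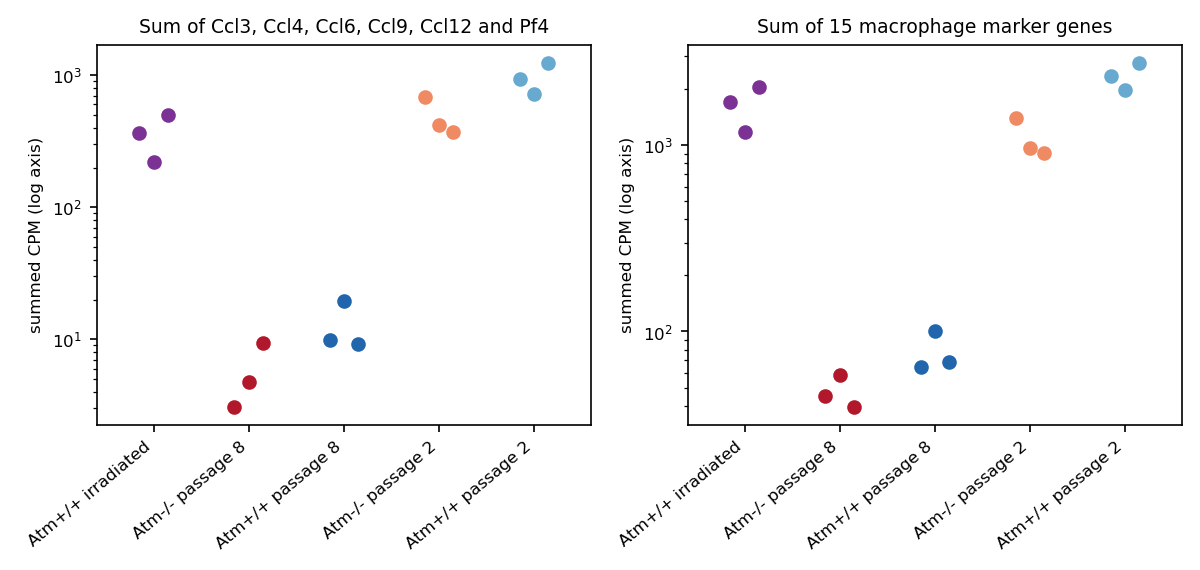
Summed CPM on log axes, each point 1 library: left, the chemokine genes Ccl3, Ccl4, Ccl6, Ccl9, Ccl12 and Pf4; right, 15 macrophage marker genes that are not chemokines. Both passage 8 groups lie at 3.06 to 19.5 CPM on the left and at 39.1 to 100.2 CPM on the right, and no other library is below 221.6 CPM on the left or 907 CPM on the right.

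The neutrophil-attracting CXC chemokines act on Cxcr2, except that no receptor is assigned to Cxcl15 here. Cxcl1 and Cxcl2 are made within hours of infection or injury by many cell types, Cxcl5 mainly by epithelia and stromal cells, Cxcl15 (lungkine) by lung epithelium, and Ppbp is a platelet protein. Of these 6 genes, 4 fell with passage in Atm-/- cells (Cxcl2, Cxcl3, Cxcl5 and Ppbp) and all 6 in Atm+/+ cells, and edgeR called 0 of them between genotypes, with 1 at an unadjusted p under 0.05 at each passage. DESeq2 called Cxcl5 as lower in Atm-/- cells at passage 8. Cxcl1 stood at 11.5, 5.38 and 11.9 CPM in irradiated cells, 6.02, 10.3 and 6.22 CPM in Atm-/- passage 8 cells and 9.18, 9.02 and 12.1 CPM in Atm+/+ passage 8 cells. It was at 9.39, 11.9 and 12.6 CPM in Atm-/- passage 2 cells and 20.7, 29.3 and 14.9 CPM in Atm+/+ passage 2 cells. The Atm+/+ passage 2 libraries were above all others. Cxcl1 fell with passage in Atm+/+ cells (log2 fold change -1.10, SE 0.33, adjusted p = 0.0294), and in irradiated against Atm+/+ passage 2 cells (log2 fold change -1.17, SE 0.33, adjusted p = 0.0198), both against the same libraries. The passage call was lost without Atm+/+ passage 2 replicate 1 or 2, Atm-/- passage 2 replicate 2 or any one Atm+/+ passage 8 library (adjusted p = 0.0504 to 0.1) and with the strain number as a block (adjusted p = 0.0664), and the irradiation call without irradiated replicate 2 or Atm+/+ passage 2 replicate 2 (adjusted p = 0.0748 to 0.0979). Both were lost in limma on TPM.

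Cxcl2 stood at 7.90, 2.64 and 9.39 CPM in irradiated cells, 0.698, 0.482 and 0 CPM in Atm-/- passage 8 cells and 0.258, 0.339 and 0.192 CPM in Atm+/+ passage 8 cells. It was at 3.99, 3.63 and 3.63 CPM in Atm-/- passage 2 cells and 4.47, 7.89 and 10.2 CPM in Atm+/+ passage 2 cells. Cxcl2 fell with passage, with log2 fold changes of -3.06 (SE 0.66, adjusted p = 0.00653) in Atm-/- cells and -4.82 (SE 0.70, adjusted p = 0.000286) in Atm+/+ cells, and rose in irradiated against Atm+/+ passage 8 cells (log2 fold change 4.65, SE 0.70, adjusted p = 0.000893). Cxcl3, a close relative of both, stood at 3.87, 1.75 and 3.74 CPM in irradiated cells, 0.204, 0.161 and 0 CPM in Atm-/- passage 8 cells and 0.0861, 0.237 and 0.0824 CPM in Atm+/+ passage 8 cells. It was at 7.70, 4.50 and 4.42 CPM in Atm-/- passage 2 cells and 6.39, 11.0 and 3.92 CPM in Atm+/+ passage 2 cells. Both genes lay under 1 CPM in all passage 8 libraries and above 1 CPM in all others. Cxcl3 fell with passage, with log2 fold changes of -5.21 (SE 0.68, adjusted p = 0.000177) in Atm-/- cells and -5.72 (SE 0.67, adjusted p = 5.02e-05) in Atm+/+ cells, and rose in irradiated against Atm+/+ passage 8 cells (log2 fold change 4.53, SE 0.65, adjusted p = 0.000657). Without Atm+/+ passage 8 replicate 2, the Atm+/+ passage change of Cxcl3 was -6.34 and its irradiation change 5.15.

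Cxcl5 stood at 6.66, 9.84 and 10.7 CPM in irradiated cells, 0.0582, 2.12 and 0 CPM in Atm-/- passage 8 cells and 2.87, 5.60 and 3.29 CPM in Atm+/+ passage 8 cells. It was at 12.3, 18.9 and 12.3 CPM in Atm-/- passage 2 cells and 22.3, 32.8 and 13.5 CPM in Atm+/+ passage 2 cells. Within Atm-/- passage 8 cells nearly all its reads came from replicate 2. Cxcl5 fell with passage in Atm-/- cells (log2 fold change -4.16, SE 0.87, adjusted p = 0.00554), and the fitted value was -8.27 without Atm-/- passage 8 replicate 2, with 2 counts left, and -3.54 without replicate 1. In Atm+/+ cells it fell (log2 fold change -2.55, SE 0.78, adjusted p = 0.031), a call lost also without the filter on counts and without any one of 10 libraries (adjusted p = 0.0501 to 0.12), which were irradiated replicates 2 and 3, Atm+/+ passage 2 replicates 1 and 2, all Atm-/- passage 2 and all Atm+/+ passage 8. Cxcl15 had 160 counts over all libraries and stood at 0, 0.212 and 0.0838 CPM in irradiated cells, 0.0582, 0.0321 and 0 CPM in Atm-/- passage 8 cells and 0, 0.136 and 0 CPM in Atm+/+ passage 8 cells. It was at 0.138, 1.37 and 0.491 CPM in Atm-/- passage 2 cells and 0.559, 0.822 and 0.774 CPM in Atm+/+ passage 2 cells. It fell with passage in Atm+/+ cells (log2 fold change -4.00, SE 1.24, adjusted p = 0.0329), a call lost without irradiated replicate 3, Atm+/+ passage 2 replicate 1 or 3, Atm-/- passage 2 replicate 3 or Atm+/+ passage 8 replicate 1 or 3 (adjusted p = 0.0532 to 0.135), and the fitted value ran from -7.58, with 0 counts left at passage 8 without replicate 2 and so no bound, to -3.39 as single Atm+/+ passage 8 libraries were left out. Of 6 tested epithelial markers 5 fell in the same comparison (median -6.12), with summed levels of 0.287 to 0.878 CPM in Atm+/+ passage 8 cells and 4.06 to 19.1 CPM in Atm+/+ passage 2 cells, and their part was not tested. Ppbp stood at 1.65, 1.60 and 2.46 CPM in irradiated cells, 3.02, 3.18 and 3.36 CPM in Atm-/- passage 2 cells and 4.16, 6.11 and 1.79 CPM in Atm+/+ passage 2 cells. It was at 0 counts in all 6 passage 8 libraries. It passed as lower with passage in both genotypes, at least 81.6-fold in Atm-/- cells (adjusted p = 0.000171) and at least 148-fold in Atm+/+ cells (adjusted p = 5.54e-05), and as at least 63.2-fold higher in irradiated against Atm+/+ passage 8 cells (adjusted p = 0.000312), with a floor of 3 counts over the group at 0.

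**Figure D5:**
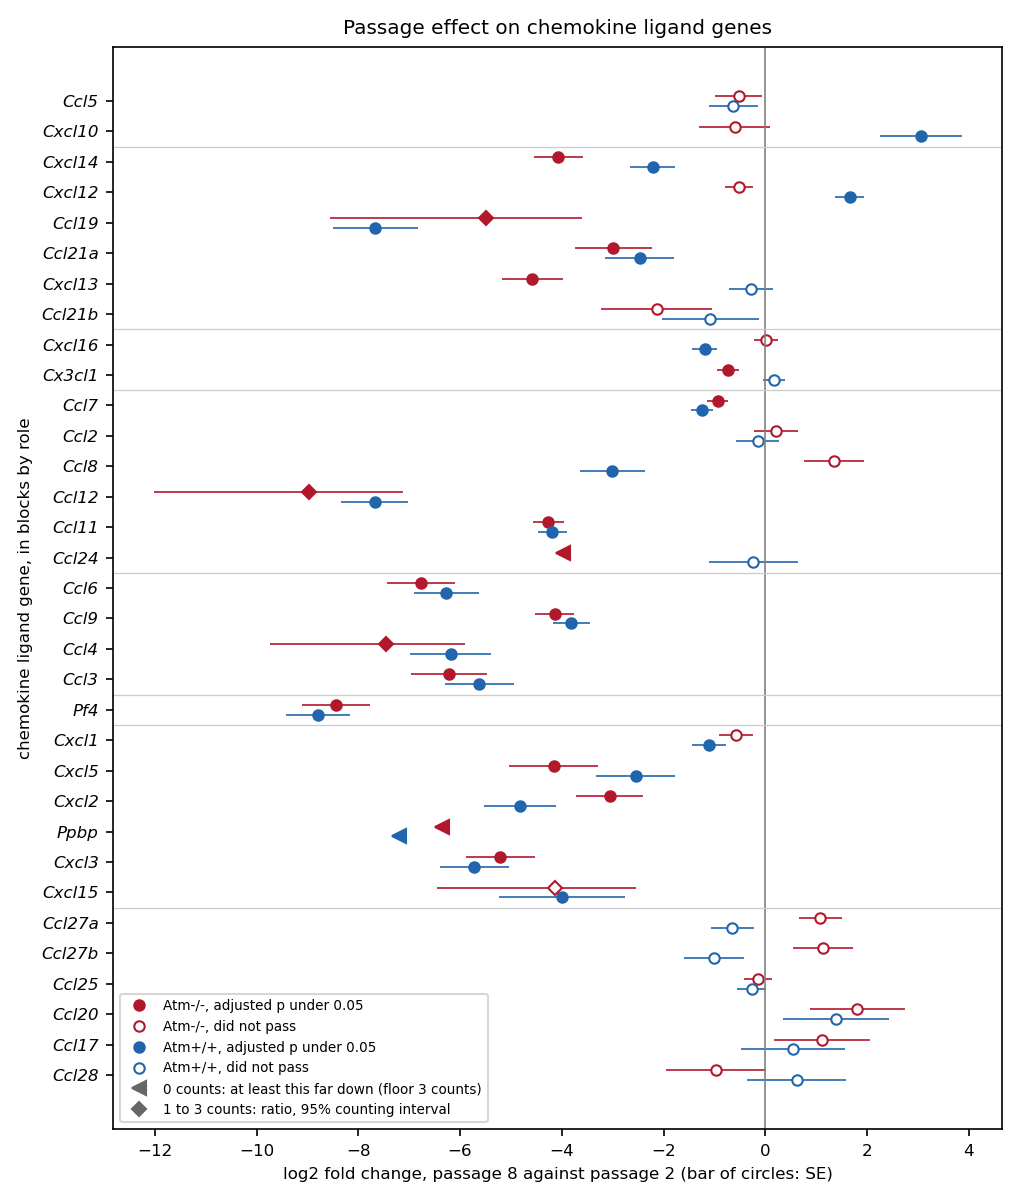
Log2 fold change of passage 8 against passage 2 for the 33 tested members, in Atm-/- cells (red) and Atm+/+ cells (blue), with SE as bars of circles; filled symbols passed at an adjusted p under 0.05, triangles are bounds for genes at 0 counts at passage 8, and diamonds are count ratios with 95% counting intervals for genes at 1 to 3 counts. Of the filled symbols, Cxcl10 and Cxcl12 in Atm+/+ cells lie above 0, at 3.05 and 1.66.

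The remaining 8 tested members did not pass in any comparison of the edgeR fit over all libraries. They were Ccl2 and Ccl21b, described above, and Ccl17, Ccl20, Ccl25, Ccl27a, Ccl27b and Ccl28. Ccl20, the ligand of Ccr6, was at 3.40, 1.61 and 0 CPM in Atm-/- passage 8 cells, against 0.459, 0.339 and 0.384 CPM in Atm+/+ passage 8 cells, a log2 fold change of 2.12, with 2 libraries above and 1 below all Atm+/+ values. In the 13-library fit it passed as higher in Atm-/- cells. Ccl27a was at 6.55, 8.32 and 24.5 CPM in Atm-/- passage 8 cells, against 7.98, 7.63 and 5.71 CPM in Atm+/+ passage 8 cells, and its highest value was in the shallowest library. In irradiated against Atm+/+ passage 2 cells DESeq2 called Ccl27a and Ccl27b as lower. Both also passed there in the 13-library fit, as did Ccl20. For the difference of the passage effects DESeq2 called Ccl27a and Ccl27b as higher. Ccl27a and Ccl27b are near-identical copies, Il11ra1 overlaps Ccl27a and Elavl1 overlaps Ccl25, each on the other strand, so their counts are uncertain. Ccl25 lay between 2.71 and 4.98 CPM over all libraries. Ccl17 and Ccl28 did not exceed 0.526 and 1.70 CPM.

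Most members lie in clusters (GRCm38/mm10, GENCODE vM21). The passage calls by cluster are given as a description, since clusters were not compared by a test. On chromosome 5, from 90759360 to 90905938, the 7 genes Cxcl5, Ppbp, Pf4, Cxcl3, Cxcl15, Cxcl1 and Cxcl2 lie together. In Atm-/- cells 5 of the 7 fell with passage, and in Atm+/+ cells all 7. On chromosome 11, from 83525778 to 83664683, Ccl9, Ccl6, Ccl3 and Ccl4 fell with passage in both genotypes and Ccl5 in the same stretch did not pass. On the same chromosome, from 82035571 to 82305690, 3 of 5 tested genes fell in Atm-/- cells (Ccl7, Ccl11 and Ccl12) and 4 in Atm+/+ cells (these and Ccl8), while Ccl2 did not pass. On chromosome 4, from 41769467 to 42773993, 2 of 5 genes fell in each genotype (Ccl19 and Ccl21a), and Ccl21b, Ccl27a and Ccl27b did not pass. On chromosome 8, from 94745590 to 94812036, Cx3cl1 fell in Atm-/- cells, Ccl17 did not pass and Ccl22 was not tested. Cxcl12 on chromosome 6, 117168535 to 117181367, rose with passage in Atm+/+ cells, and Cxcl14 on chromosome 13, 56288643 to 56296551, fell in both genotypes.

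The receptors of these ligands were mostly low. Of 23 chemokine receptors and decoy receptors, 13 were tested, and their levels summed to 48.4 to 58.6 CPM in irradiated cells, 27.2 to 28.3 CPM in Atm-/- passage 8 cells, 16.9 to 18.5 CPM in Atm+/+ passage 8 cells, 50.8 to 80.1 CPM in Atm-/- passage 2 cells and 57.2 to 128 CPM in Atm+/+ passage 2 cells. In edgeR 0 passed between genotypes, with 2 at an unadjusted p under 0.05 at each passage and list medians of 0.13 at passage 8 and -0.40 at passage 2, and DESeq2 called 1 as higher at passage 8. With passage 4 fell and 0 rose in Atm-/- cells (median -2.79), among them Cxcr4 at -4.27 (SE 0.67, adjusted p = 0.000766), Ccr1 and Ccr7. In Atm+/+ cells 7 fell and 0 rose (median -1.98), among them Cxcr4 at -7.04 (SE 0.77, adjusted p = 2.85e-05), Ccr1, Ccr7, Cxcr1, Ackr2 and Ackr3. Ackr3, the scavenger of Cxcl12, also fell there, at -1.44 (SE 0.29, adjusted p = 0.00288). In irradiated against Atm+/+ passage 2 cells 3 of the 13 fell (Cxcr5, Ackr2 and Ccr7, median -0.63), where 27.5% of all genes passed, and against Atm+/+ passage 8 cells Cxcr4 and Ccr1 were among those that rose, and Cxcr5 fell (median 1.78, or 1.21 with a gene at 0 at its bound). Cxcr4 and Ccr1 are receptors that macrophages carry. Both the macrophage and the endothelial marker sums given above fell with passage. They were also higher in irradiated than in Atm+/+ passage 8 cells, and their part was not tested.

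Of 18 genes that cut, shed or present chemokines, all were tested. In Atm-/- against Atm+/+ cells, 1 rose and 5 fell at passage 8 (median -0.24), and Mmp9 alone passed at passage 2, at -2.62 (SE 0.32, adjusted p = 0.00107), with a list median of 0.07. Those at passage 8 were Ctsk, a collagen-degrading protease that rose by 0.86 on the log2 scale, and Mmp9, Mmp3, Sdc1, Sdc4 and Hs2st1, which fell. With passage 2 rose and 4 fell in Atm-/- cells (median -0.01), and 4 rose and 2 fell in Atm+/+ cells (median 0.35). Dpp4, the peptidase that inactivates Cxcl12 and Cxcl10 by removing their first residues, rose with passage in Atm+/+ cells (log2 fold change 2.27, SE 0.42, adjusted p = 0.00164), as Cxcl12 did. In irradiated cells it fell against Atm+/+ passage 8 cells (log2 fold change -2.56, SE 0.42, adjusted p = 0.00163). Mmp9 and Ctss, which macrophages also make, fell with passage in both genotypes, Mmp9 with log2 fold changes of -9.23 in Atm-/- cells, where 4 counts were left, and -8.46 in Atm+/+ cells. In irradiated against Atm+/+ passage 2 cells 5 of the 18 rose and Mmp9 fell (median 0.05), a share near the 27.5% of all genes, and against Atm+/+ passage 8 cells Mmp9 and Ctss rose and Dpp4 fell (median 0.13).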

How the data were processed

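RNA-seq libraries of 15 lung fibroblast cultures were analysed from a table of raw counts per gene, which the authors made with featureCounts on mm10, per the submitters' processing notes, which also name SAMtools 1.3.1. For the aligner, the annotation release and the strand setting, the entry is not given in the sources used here. The authors also deposited TPM values for 48082 genes, each library scaled to the same total, and a TPM table of fewer genes that was not used here. Gene IDs were paired with symbols of GENCODE vM21, and 382 IDs had none.

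Groups follow the sample titles. In R 4.3.3, edgeR 4.0.16 (TMM, filterByExpr with a minimum count of 10, robust quasi-likelihood fit over all 15 libraries, 1 mean per group) gave 7 contrasts: genotype at each passage, passage in each genotype, irradiated cells against each unirradiated Atm+/+ group, and the difference of the passage effects. P-values were adjusted by Benjamini-Hochberg over 18167 genes, and each SE was taken from the log2 fold change and the F statistic (their ratio after a square root of F). The fit was tested on simulated counts with 200 changed genes. Alternatives were DESeq2 1.42.0, its size factors in edgeR, no filter or a filter of 10 counts in 3 libraries, limma 3.58.1 on log2(TPM + 1) or log2(TPM + 0.1) with a filter of 0.5 TPM in 3 libraries or none, the strain number as a block, only the groups compared, each library left out, and 13 libraries.

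Titles number the strains 1 to 3 within a genotype and the series design has each strain sampled at both passages, so same-numbered libraries of a genotype were taken as pairs. Their deviations from the group means did not correlate consistently, at -0.202 to 0.190 over 12 pairs of libraries. The block is nested in genotype and ties no Atm-/- library to an Atm+/+ library. That irradiated libraries share a strain with the same number is an assumption of the block.

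The members and the lists of receptors, processing genes, regulators and markers were chosen with earlier results of these data known. Some genes of the receptor and regulator lists enter the counts and medians but are not reported here by name. Every tested member is named, those that passed with an adjusted p and values by library, and with a bound or a ratio of counts in place of a fitted fold where a group held 0 to 3 counts. Floors are 3 counts over a group. Floors and 95% intervals (exact, of a ratio of counts) cover counting error only. Per-library precision is limited by totals of 13.6 to 39.2 (in units of 1e6 counts).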

Additional observations from a re-analysis of the deposited data

Results flagged for a closer look

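For 3 members the difference of the passage effects between genotypes passed in edgeR, by a test of the difference itself (Atm-/- effect minus Atm+/+ effect, over all 18167 genes, 2.46% higher and 1.97% lower among all genes, or 177 genes higher and 656 lower on log2(TPM + 1) in limma, against 446 and 358 in edgeR). Of the 33 members, 1 passed as higher and 2 as lower, and 30 did not pass, with a member median of -0.03 against -0.14 over all genes.

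On the log2 scale the difference for Ccl8 was 4.35 (SE 0.86, adjusted p = 0.0213), from 1.35 with passage in Atm-/- cells and -3.00 in Atm+/+ cells. For Cxcl12 it was -2.17 (SE 0.39, adjusted p = 0.0144), from -0.51 in Atm-/- cells and 1.66 in Atm+/+ cells. For Cxcl13 it was -4.29 (SE 0.74, adjusted p = 0.0131), from -4.58 in Atm-/- cells, where 4 counts remained at passage 8, and -0.28 in Atm+/+ cells. With the strain number as a block the differences of Ccl8 and Cxcl13 missed the threshold (adjusted p = 0.0826 and 0.0523), and that of Cxcl12 did without Atm+/+ passage 8 replicate 3 (adjusted p = 0.051). That of Ccl8 was also lost without any one of 6 libraries (adjusted p = 0.0538 to 0.0779). Of the fibroblast markers, 5 of 9 also passed as lower in this difference, and their part in these results was not tested.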

How the results depend on the processing

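Of the 76 calls of a member in a comparison, 44 held under every alternative run. Over 1898 alternative values, 1729 kept the direction and the threshold, 169 missed the threshold and 0 changed direction. Under the alternatives that keep all libraries, the counts of members in the passage comparisons and in irradiated against Atm+/+ passage 8 cells stayed within 1.5 times. Between genotypes at passage 2, against 3 members, DESeq2 called 7, the 13 libraries 5 and the fit of only the groups compared 0. At passage 8, against 7, the 13 libraries gave 13 and only the groups compared 0. In irradiated against Atm+/+ passage 2 cells, against 10, limma on log2(TPM + 0.1) gave 6 and the 13 libraries 17. For the difference of the passage effects, against 3, DESeq2 gave 10, limma on log2(TPM + 1) 5 and the 13 libraries 7. The cause was not tested.

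With 1 library left out, the counts ran from 0 to 9 between genotypes at passage 2 and from 4 to 11 at passage 8. Leaving out Atm-/- passage 2 replicate 1 or 2 gave the 0, leaving out Atm+/+ passage 2 replicate 2 the 9, leaving out Atm+/+ passage 8 replicate 1 or 2 the 4, and leaving out Atm-/- passage 8 replicate 3 the 11. They ran from 16 to 19 with passage in Atm-/- cells and from 16 to 21 in Atm+/+ cells. For irradiated cells they ran from 12 to 17 against Atm+/+ passage 8 cells and from 6 (irradiated replicate 2 left out) to 16 (Atm-/- passage 8 replicate 3 left out) against Atm+/+ passage 2 cells. In the test of unequal passage effects they ran from 1, when Atm+/+ passage 8 replicate 3 was left out, to 9, when Atm+/+ passage 2 replicate 2 or Atm-/- passage 8 replicate 2 was.

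With the replicate block, 0 members passed between genotypes at passage 2, 4 at passage 8 and 1 in the difference of the passage effects, and 10 calls missed the threshold (adjusted p = 0.0523 to 0.0826), each named with its gene. The block ended no other call. The limma fits on TPM ended 8 to 13 calls each (adjusted p = 0.0509 to 0.692). Members with under 10 counts in a group set the limit of what these depths resolve.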
